A study of Mus musculus with 8 samples.

Results

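Complement and acute-phase genes that adipocytes are known to express were followed in RNA sequencing of mouse 3T3-L1 adipocytes with and without silencing of Erk3. The genes named were C3, Hp, Cfd, Cfb, C4b, Serping1, Lcn2 and Saa3. They were chosen by symbol, with the fold changes between these 2 groups already known from earlier work on the same libraries, so their levels and fold changes are given as a description without a test. A named gene entered where the count table held a row under its symbol. This was so for 7 of the 8 named genes, among 18088 genes in all, and Saa3 was not analysed here.

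3T3-L1 is a mouse fibroblast line whose cells become adipocytes under a differentiation protocol. All cells were wild type and differentiated, and received either siRNA against Erk3, an atypical MAP kinase (siErk3, 4 libraries), or a nontargeting control (siNTC, 4 libraries). The siRNA was used at 1.25 nM per square centimeter and cells were taken after 48 h. The sources do not say whether the 4 libraries of a group came from separate cultures, so each spread below is between libraries and may be technical, and with a single siErk3 condition the loss of Erk3 and other effects of that siRNA cannot be told apart.

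Complement is a cascade of plasma proteins in which C3 is cleaved by convertase enzymes. The convertase of the classical and lectin pathways is built from C4 and C2, and that of the alternative pathway from C3 and factor B (Cfb), which factor D (Cfd) cuts. Acute-phase proteins are secreted in inflammation, mainly by the liver. Adipocytes secrete several proteins of both kinds, and factor D was described in fat cells as adipsin.

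Total counts were between 9854522 and 9943572 per library. CPM denotes counts scaled to a common library size by TMM, which corrects for differences in composition, and log2FC the log2 fold change, siErk3 over siNTC. Erk3 itself, encoded by Mapk6, was at 558 to 599 CPM in the siNTC libraries and 63.5 to 74.8 CPM in the siErk3 libraries. Of the adipocyte markers, Adipoq was at 4652 to 5498 CPM in siNTC and 2831 to 2974 CPM in siErk3 libraries. Of 12 leukocyte markers 5 had a row in the count table, and Ptprc, Adgre1 and Tyrobp were not among them. Their summed level was 67 to 71.4 CPM in siNTC and 88.1 to 94.6 CPM in siErk3 libraries, of which the most abundant, Cx3cr1, made up 57 and 67.6 CPM on average. The part of this difference in the results below was not tested. In bulk RNA, fewer cells of a type and less of an RNA per cell cannot be told apart.

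The 7 genes split in direction. C3, Cfd and Hp, the most abundant of them in siNTC adipocytes, were lower in siErk3 adipocytes, and Cfb, C4b, Lcn2 and Serping1 were higher. In all 7 the libraries of one group lay entirely above those of the other, which was so for 43.2% of all 17972 genes tested. At an adjusted p under 0.05 from edgeR's quasi-likelihood test with Benjamini-Hochberg adjustment, 48.7% of all genes were called, 24.9% higher and 23.8% lower, and of the 7 genes 4 were called higher and 3 lower. The genes were chosen with this contrast known, so nothing is read from these counts. The median log2FC was 0.001 over all genes tested and 2.13 over the 7 genes, which is the value of Serping1. With 4 of them higher and 3 lower, this median describes no shared shift. Serping1 and Lcn2 lay just inside the minimum for a row in the table, which is more than 1 CPM in at least 4 libraries. Both exceeded it in 5 libraries, of which 1 was an siNTC library, so they had to be higher in siErk3 to be counted at all. The other 5 genes exceeded it in all 8 libraries. Genes just outside this limit were not analysed here.

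**Figure D1:**
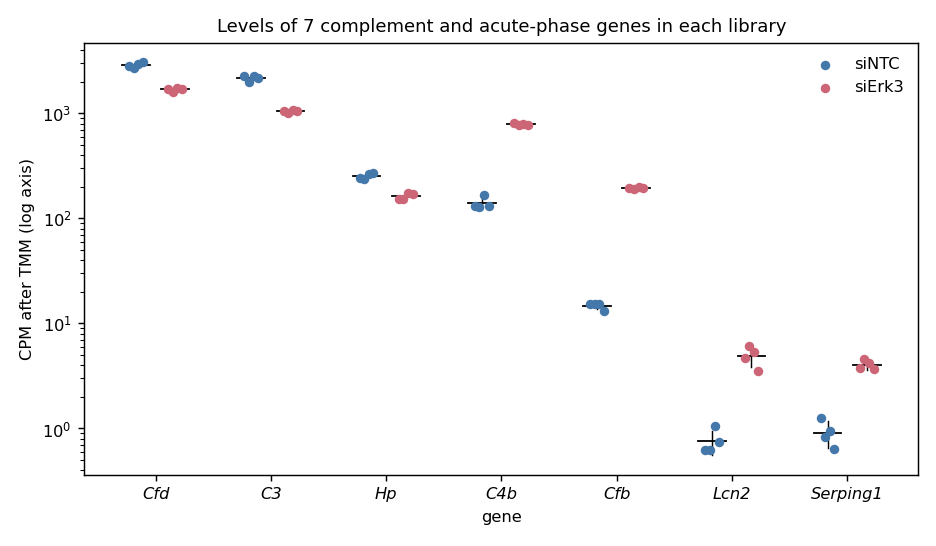
Level of each gene in every library, in CPM after TMM on a log axis, with siNTC libraries in blue and siErk3 libraries in red. Black lines are the group means with SD (n = 4 libraries). Cfd, C3 and Hp lie lower in siErk3, and C4b, Cfb, Lcn2 and Serping1 lie higher, with no overlap between the groups in any of them.

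Of the 7 genes, promoter sequences were matched for C3, Lcn2 and Cfd, 1 gene that was higher and 2 that were lower in siErk3, and are shown to set their letters beside these directions. Each run holds the 250 bases before the RefSeq start on GRCm38.p6, 5′ to 3′ on the strand of the gene, and capitals mark a match to TTGCNNAA on either strand, the core of the site bound by C/EBP factors, which drive both adipocyte and acute-phase genes. C3 lies on the minus strand at chr17:57228137-57228386, Lcn2 on the minus strand at chr2:32387740-32387989 and Cfd on the plus strand at chr10:79890603-79890852. The run of Lcn2 lies inside the span of the gene in GENCODE, 32384633 to 32388252. Its matches and lack of matches thus hold for the RefSeq start only.
C3: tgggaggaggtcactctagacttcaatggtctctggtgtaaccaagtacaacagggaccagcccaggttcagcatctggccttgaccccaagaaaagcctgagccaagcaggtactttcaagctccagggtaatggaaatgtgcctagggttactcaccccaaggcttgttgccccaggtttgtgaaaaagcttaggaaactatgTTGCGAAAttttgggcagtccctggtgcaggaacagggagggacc
Lcn2: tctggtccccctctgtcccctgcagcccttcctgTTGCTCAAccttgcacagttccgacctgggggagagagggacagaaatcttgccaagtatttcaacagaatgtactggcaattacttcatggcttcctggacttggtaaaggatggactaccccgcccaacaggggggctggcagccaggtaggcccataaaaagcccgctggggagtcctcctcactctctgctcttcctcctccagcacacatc
Cfd: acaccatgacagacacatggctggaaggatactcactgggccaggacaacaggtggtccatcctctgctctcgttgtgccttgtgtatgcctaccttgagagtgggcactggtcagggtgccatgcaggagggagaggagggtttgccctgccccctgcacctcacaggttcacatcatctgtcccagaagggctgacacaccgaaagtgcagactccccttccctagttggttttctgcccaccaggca
The match begins 45 bases before the start in C3, as TTGCGAAA, and 216 bases before it in Lcn2, as TTGCTCAA. Of 32851 mouse promoters of the same length, 9.56% hold this motif. The promoter of Cfd held no match to it. The core GAAANNGAAA of the interferon-stimulated response element (in 2.98% of promoters), the gamma-activated sequence TTCNNNGAA (in 7.02%) and the NF-κB consensus (in 7.25%) had no match in any of the 3 runs. The promoter of Saa3, whose level was not analysed here, held the C/EBP core 99 bases before its start and the interferon-stimulated core 125 bases before it, as GAAAGAGAAA. A match shows the letters only. C3 and Lcn2, which both hold the C/EBP core, went in opposite directions. Lcn2 had to be higher in siErk3 to be in the table, so nothing is read from this difference.

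Of the alternative pathway, C3, the substrate on which all pathways converge, was the second most abundant of the 7 genes. C3 (ENSMUSG00000024164) spans 57203970 to 57228136 of chromosome 17, minus strand (build mm10). It was at 2265, 1993, 2279 and 2174 CPM in siNTC replicates 1 to 4, and at 1044, 1001, 1066 and 1059 CPM in siErk3 replicates 1 to 4. Every siErk3 library held about the same level, and the lowest siNTC library, replicate 2, was still well above all of them. The means were 2178 ± 132 CPM for siNTC and 1043 ± 29.3 CPM for siErk3 (SD, n = 4 each), 2.09 times lower, or a log2FC of -1.06 (standard error 0.05).

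Cfd (ENSMUSG00000061780), the protease that activates factor B and a product typical of adipocytes, lies on the plus strand of chromosome 10 from 79890853 to 79892655. It was at 2803, 2707, 2949 and 3064 CPM in the siNTC libraries and at 1704, 1616, 1743 and 1716 CPM in the siErk3 libraries. It ranked number 33 of all genes tested by mean CPM, and replicate 2 was the lowest library of both groups, as it was for C3. Its mean was 2881 ± 157 CPM in siNTC and 1695 ± 54.9 CPM in siErk3 (SD, n = 4 each), 1.7 times lower, with a log2FC of -0.77 (standard error 0.05). Cfd took 0.266 to 0.294% of all counts in siNTC and 0.165 to 0.181% in siErk3 libraries.

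Cfb (ENSMUSG00000090231), the zymogen that Cfd cuts to form the catalytic part of the alternative convertase, moved the other way. It lies on the minus strand of chromosome 17 from 34856374 to 34862518. It was at 15.31, 15.18, 15.34 and 13.04 CPM in the siNTC libraries and at 193.4, 192.6, 199.1 and 193.6 CPM in the siErk3 libraries. The siErk3 libraries lay within a narrow band more than 10-fold above the control. The means were 14.7 ± 1.12 CPM for siNTC and 195 ± 3 CPM for siErk3 (SD, n = 4 each), 13.2-fold higher, with a log2FC of 3.72 (standard error 0.06). Ranked from the largest increase, it was gene number 146, and its change was the largest among the 7. Most of the exon bases of Cfb (79.5%) are annotated also to Gm20547, a gene on the same strand that runs through Cfb and C2. The counts of Gm20547 exceeded those of Cfb by only 0 to 2 in the siNTC and 5 to 11 in the siErk3 libraries, so the table lists nearly the same number for both, and the 2 genes cannot be told apart.

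Within each library, the proportion of these 3 transcripts changed. Per kilobase of exons, Cfb was 0.0123, 0.0139, 0.0123 and 0.0109 times the level of C3 in the siNTC libraries, and 0.337, 0.35, 0.34 and 0.333 times in the siErk3 libraries. Cfb over Cfd went from 0.00168 ± 0.000198 to 0.0375 ± 0.000935 (SD, n = 4 each). Cfb thus stayed the least abundant of the 3 in both groups. C3 over Cfd, 2 genes that were both lower, was 0.127 to 0.145 in siNTC and 0.11 to 0.111 in siErk3 libraries. These ratios need no scaling between libraries, since both genes of a ratio are read in the same one.

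Of the classical pathway, C4b (ENSMUSG00000073418) encodes complement C4, which forms the platform of the classical and lectin convertase. It lies on the minus strand of chromosome 17 from 34728380 to 34743882. It was at 131.4, 129.2, 167.2 and 131.3 CPM in the siNTC libraries and at 814.7, 782.4, 787.8 and 783.5 CPM in the siErk3 libraries. Replicate 3 stood above the other siNTC libraries, yet far below each siErk3 library. The mean was 140 ± 18.3 CPM in siNTC and 792 ± 15.3 CPM in siErk3 (SD, n = 4 each), 5.67-fold higher, with a log2FC of 2.50 (standard error 0.07). C4b shares reads with a near copy, C4a, since 34.6% of the stretches of 50 bases in C4b transcripts also occur in those of C4a. The count of C4a was 0.155 to 0.179 times that of C4b in siNTC and 0.144 to 0.157 times in siErk3 libraries, so both were higher by like amounts, and how reads were split between them is uncertain.

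Serping1 (ENSMUSG00000023224) encodes the C1 inhibitor, a serpin that blocks C1r, C1s and the lectin proteases. It lies on the minus strand of chromosome 2 from 84765387 to 84775444. It had 12, 8, 9 and 6 counts in the siNTC libraries and 39, 46, 43 and 37 counts in the siErk3 libraries. These are few reads. The lowest siErk3 library had more than 3 times the reads of the highest siNTC library, in a direction fixed by the minimum for a row. The mean was 0.912 ± 0.259 CPM in siNTC and 4.04 ± 0.404 CPM in siErk3 (SD, n = 4 each), 4.43-fold higher, with a log2FC of 2.13 (standard error 0.23).

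Of the acute-phase genes, Hp (ENSMUSG00000031722) encodes haptoglobin, which binds free hemoglobin. It lies on the minus strand of chromosome 8 from 109575128 to 109579172. It was at 243.8, 237.4, 262.3 and 270.4 CPM in the siNTC libraries and at 153, 153.8, 175 and 169.9 CPM in the siErk3 libraries. In both groups replicates 1 and 2 were lower than replicates 3 and 4, and the groups did not meet. The mean was 253 ± 15.5 CPM in siNTC and 163 ± 11.2 CPM in siErk3 (SD, n = 4 each), 1.56 times lower, with a log2FC of -0.64 (standard error 0.06), the smallest change among the 7.

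Lcn2 (ENSMUSG00000026822) encodes lipocalin 2, which binds bacterial iron carriers. It lies on the minus strand of chromosome 2 from 32384633 to 32388252. It had 6, 6, 10 and 7 counts in the siNTC libraries and 49, 62, 55 and 36 counts in the siErk3 libraries. Relative to the mean, its siErk3 libraries spread more widely than those of any other of the 7 genes. All lay above the control, a direction fixed by the minimum for a row. The mean was 0.756 ± 0.199 CPM in siNTC and 4.94 ± 1.08 CPM in siErk3 (SD, n = 4 each), 6.54-fold higher, with a log2FC of 2.69 (standard error 0.25).

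The spread between libraries followed the depth behind each gene only in part. For Lcn2 in siNTC, counting error alone gives a coefficient of variation of 37.1%, and 26.3% was observed. For Serping1 in siNTC these were 33.8% and 28.4%. For C3 in siNTC counting error gives 0.692% and 6.04% was observed, so its spread lay above counting error, as did that of C4b in siNTC, with 2.73% and 13.1%. In siErk3, Cfb varied by 1.54% and C4b by 1.93%, close to the 2.24% and 1.11% that their counts give.

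Compared per kilobase of exons, the order of levels in siNTC adipocytes was Cfd (3125 ± 171 CPM per kilobase), C3 (423 ± 25.6), Hp (158 ± 9.63), C4b (24.5 ± 3.21), Cfb (5.21 ± 0.396), Serping1 (0.392 ± 0.111) and Lcn2 (0.288 ± 0.0759; SD, n = 4 each). In siErk3 adipocytes it was Cfd (1838 ± 59.6), C3 (203 ± 5.69), C4b (139 ± 2.68), Hp (101 ± 6.97), Cfb (68.9 ± 1.06), Lcn2 (1.88 ± 0.412) and Serping1 (1.74 ± 0.174). Serping1 and Lcn2 did not differ beyond their spread in either group. All other neighbours in both orders lay further apart than their SDs. C4b passed Hp, from 0.137 to 0.18 times its level in siNTC to 1.27 to 1.5 times in siErk3 libraries.

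**Figure D2:**
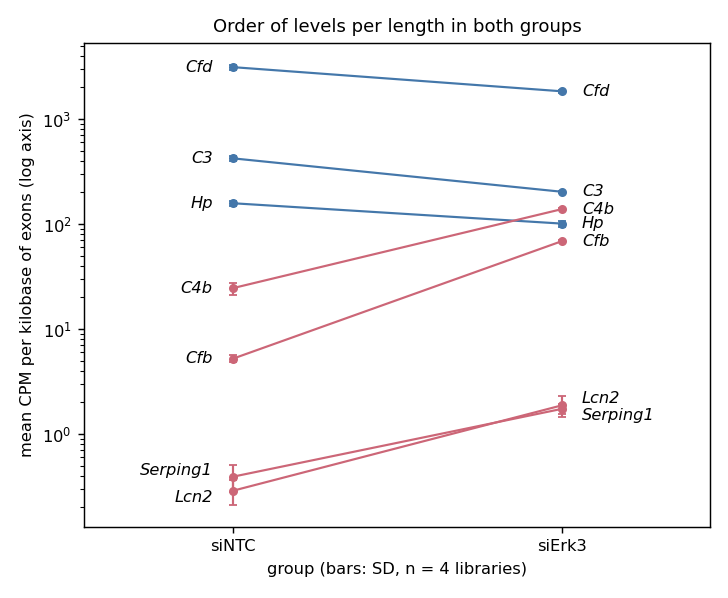
Mean level of each gene per kilobase of exons on a log axis in siNTC and siErk3 adipocytes, with SD bars (n = 4 libraries). Lines in red rise and lines in blue fall, and C4b crosses Hp, with C4b at 139 and Hp at 101 CPM per kilobase in siErk3.

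C4b and Cfb lie close together on chromosome 17, in the gene cluster known as MHC class III, with 112492 bases between them and C4a in that interval. C2, the partner of C4 in the classical convertase and a relative of Cfb, lies 86 bases from it. C2 had 190, 179, 182 and 184 counts in the siNTC and 198, 145, 158 and 187 counts in the siErk3 libraries. The groups overlapped, with a log2FC of -0.19 (standard error 0.09, edgeR adjusted p = 0.105). Gm20547 covers 42.8% of the exon bases of C2 on the same strand, and how reads in shared bases were counted is not stated. C2 was called lower without siErk3 replicate 1 (log2FC -0.25, adjusted p = 0.039) and, under upper-quartile scaling, at -0.26 (adjusted p = 0.0257). Of the other genes between these, which were looked at after their values were seen, Stk19 (-0.13) and Nelfe (0.15) were not called (edgeR adjusted p = 0.191 and 0.0804), and Dxo fell by 0.54 in log2FC (edgeR adjusted p = 2.2e-05). Dxo encodes an RNA decapping enzyme and Nelfe a subunit of the negative elongation factor.

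**Figure D3:**
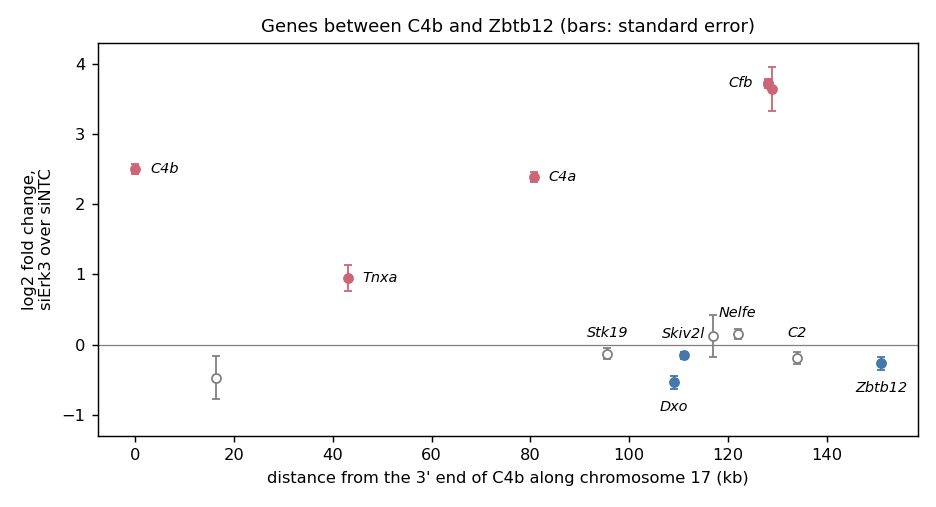
The log2FC, with standard error, of each tested gene from C4b to Zbtb12, by distance in kilobases from the 3′ end of C4b. Red points were called higher and blue points lower by edgeR (adjusted p under 0.05), and grey open points were neither. C4b, C4a and Cfb lie between 2.39 and 3.72, while C2, next to Cfb, lies at -0.19. The points unnamed beside Cfb are Gm20547 and the miRNA gene Mir6972 at the same place. Gm20547 shares exon bases with C2 as well as with Cfb.

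The other genes of the complement system were taken from lists set by role. The counts of these and the later lists stand beside 24.9% of all genes tested called higher and 23.8% called lower. Of 26 complement components 11 were tested, of which 3 were called higher, 3 lower and 5 not called, with a median log2FC of -0.14. The higher genes were C4a and the genes of the C1r protease that starts the classical cascade. C4a went from 22.7 ± 2.39 to 119 ± 4.8 CPM (SD, n = 4 each), a log2FC of 2.39 (edgeR adjusted p = 5.35e-19). C1ra went from 18.3 ± 1.91 to 57.8 ± 2.57 CPM, a log2FC of 1.66 (edgeR adjusted p = 3.94e-15), and C1rb had a log2FC of 1.36. C1ra and C1rb are near copies, with 48% of the 50-base stretches of C1ra also in C1rb, so their counts are not separate. C1s1, the protease that C1r activates, fell by 0.74 in log2FC (edgeR adjusted p = 0.000155), from 68 to 78 counts per siNTC library to 39 to 58. An antisense gene covers 18.4% of the exon bases of C1s1, and the kit does not mark strand. Properdin, the stabilizer of the alternative convertase encoded by Cfp, was 2.01 times lower (edgeR adjusted p = 0.000769), with 4.12 ± 0.995 CPM in siNTC against 2.05 ± 0.661 CPM in siErk3 libraries. C8g of the membrane attack complex fell by 0.53, and Colec12, a scavenger receptor with a collectin domain, was at 50.2 ± 5.81 and 48.7 ± 2.4 CPM and was not called.

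None of the 8 tested complement regulators, of 15 listed, was called higher, 3 were called lower and 5 were not called (median log2FC -0.18). This list leaves out Serping1, also a regulator, which was called higher (log2FC 2.13) and had to be higher to be in the table. Cd59a, which blocks the membrane attack complex, went from 25.4 ± 2.15 to 20.2 ± 1.73 CPM (SD, n = 4 each), a log2FC of -0.33 (edgeR adjusted p = 0.00247). Cd55, which dissociates convertases, fell by 0.91 and Cfi, the protease that inactivates C3b and C4b, fell by 1.22 in log2FC (edgeR adjusted p = 0.000964 and 0.000208), both at under 4 CPM in every library. Cr1l, a mouse convertase regulator also known as Crry, was at 23.2 ± 1.15 and 26.2 ± 2.35 CPM and not called (edgeR adjusted p = 0.0666). It was called higher with library sizes only (log2FC 0.26) and without siErk3 replicate 1 (0.23). Clu was at 16.9 ± 1.24 and 15.2 ± 1.35 CPM and not called, except as lower with upper-quartile scaling (log2FC -0.23, edgeR adjusted p = 0.0444). Of the 9 complement receptors 3 were tested and Cd93, a membrane protein once taken for a C1q receptor, was called higher, with 4 to 11 counts per siNTC and 27 to 44 per siErk3 library (log2FC 1.96). It exceeded 1 CPM in 1 siNTC library and so entered the table only through siErk3, which fixed its direction. Itgax and Cr2 were not called.

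Of 33 other acute-phase proteins 13 were tested, of which 6 were called higher, 4 lower and 3 not called, with a median log2FC of 0.39. Hpx, hemopexin, binds free heme as haptoglobin binds hemoglobin, and the 2 differed in direction. Hpx had 12, 14, 19 and 21 counts in the siNTC and 118, 118, 109 and 100 counts in the siErk3 libraries, a log2FC of 2.65 (edgeR adjusted p = 3.18e-12). Cp, the ferroxidase ceruloplasmin, rose from 47.3 ± 6.46 to 73.9 ± 3.55 CPM (SD, n = 4 each), by 0.64 in log2FC (edgeR adjusted p = 1.58e-07), and Lrg1 rose by 0.70. Trf, transferrin, fell by 1.01 (edgeR adjusted p = 0.000141), with 45 to 75 counts per siNTC and 24 to 38 per siErk3 library. A gene of the same strand, Gm20425, covers 63.5% of its exon bases. Itih4 went from 39.5 ± 4.68 to 25.3 ± 0.167 CPM, a log2FC of -0.64, and Serpina3c fell by 0.70.

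The metallothioneins, which bind zinc and copper, changed in opposite directions. Mt1 fell from 140 ± 6.86 to 109 ± 10.6 CPM and Mt2 rose from 26.5 ± 3.15 to 34.7 ± 4.77 CPM (SD, n = 4 each), with log2FC values of -0.37 and 0.39 (edgeR adjusted p = 3.94e-05 and 0.00142). An antisense gene covers 73.5% of the exon bases of Mt2, and the kit does not mark strand, so reads of that pair cannot be told apart. Orm1, an orosomucoid, was at 102 ± 9.3 and 96.3 ± 6.22 CPM and Orm2 at 15.8 ± 0.458 and 17.2 ± 0.606 CPM, neither of them called (edgeR adjusted p = 0.28 and 0.242). Orm1 was called lower with upper-quartile scaling (log2FC -0.16, edgeR adjusted p = 0.0442) and Orm2 higher with library sizes only (0.21, edgeR adjusted p = 0.0416). These share 148 of 726 stretches of 50 bases.

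Among 9 receptors and partners of acute-phase proteins 6 were tested, 3 higher, 2 lower and 1 not called. Hmox1, the heme oxygenase that degrades the heme taken up with haptoglobin and hemopexin, rose from 288 ± 25 to 1147 ± 66.1 CPM (SD, n = 4 each; log2FC 1.99, edgeR adjusted p = 6.11e-18). Tlr2, a receptor that binds serum amyloid A, had 4 to 10 counts per siNTC and 46 to 73 per siErk3 library (log2FC 2.98), and exceeded 1 CPM in 1 siNTC library, so like Serping1 it was in the table only through siErk3 and had to be higher. Tlr4 rose by 0.65. Slc22a17, a lipocalin 2 receptor, fell by 0.66 (edgeR adjusted p = 0.00271), with 46 to 51 and 25 to 43 counts per library. Lrp1, the receptor for hemopexin complexes, was at 528 ± 42 and 504 ± 27 CPM and not called. Scarb1 fell by 0.16, a call lost with library sizes only (edgeR adjusted p = 0.206).

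Of 27 cytokines, receptors and factors of the signaling that drives acute-phase genes 22 were tested, with a median log2FC of 0.48. Of these 16 were called higher, 4 lower and 2 not called. Among the 16 were Socs3 and Nfkbia, which inhibit this signaling (log2FC 0.78 and 0.24, edgeR adjusted p = 2.78e-05 and 0.00297). The 16 are thus not all drivers of acute-phase genes. Il6st, the shared receptor chain of the interleukin 6 family, rose from 161 ± 9.81 to 221 ± 2.76 CPM, and Stat3, its signal transducer, from 119 ± 3.92 to 168 ± 0.924 CPM (SD, n = 4 each), with log2FC values of 0.45 and 0.50 (edgeR adjusted p = 1.51e-07 and 1.41e-08). Cebpa, the C/EBP factor of mature adipocytes, fell from 549 ± 19.8 to 378 ± 19.1 CPM, by 0.54 in log2FC (edgeR adjusted p = 9.23e-09). Cebpb, a further C/EBP factor, went the other way, from 92.7 ± 2.09 to 147 ± 36.1 CPM, with siErk3 replicate 4 at 200.3 CPM. Its log2FC was 0.66 (edgeR adjusted p = 9.34e-06), and it was named after its values were seen. A gene on the opposite strand covers 20.7% of the exon bases of Cebpb. Nr3c1, the glucocorticoid receptor, fell by 0.38 (edgeR adjusted p = 8.98e-05) and Ifngr1, a chain of the interferon gamma receptor, by 0.22, lost with library sizes only (edgeR adjusted p = 0.0576).

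Calls of small size in this list were less firm. Tnfrsf1a, a receptor of TNF, had a log2FC of 0.14 (edgeR adjusted p = 0.0309), a call lost with upper-quartile factors (adjusted p = 0.269) and without siErk3 replicate 2 or 3 or siNTC replicate 1, 2 or 4 (adjusted p = 0.0648 to 0.0945). Cebpd, the C/EBP factor induced in inflammation, had -0.20 (edgeR adjusted p = 0.0332), lost with DESeq2, with library sizes only, and without siErk3 replicate 1, 2 or 3 or siNTC replicate 2 or 4 (adjusted p = 0.0533 to 0.21). A gene on the opposite strand covers 15% of the exon bases of Cebpd. Nfkb1, at 30 ± 1.21 and 32.7 ± 0.545 CPM, and Il1r1, at 27.4 ± 1.38 and 24.5 ± 1.38 CPM (SD, n = 4 each), were not called. Nfkb1 was called higher with library sizes only (log2FC 0.21, edgeR adjusted p = 0.0104) and Il1r1 lower with upper-quartile scaling (-0.23, edgeR adjusted p = 0.0127).

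**Figure D4:**
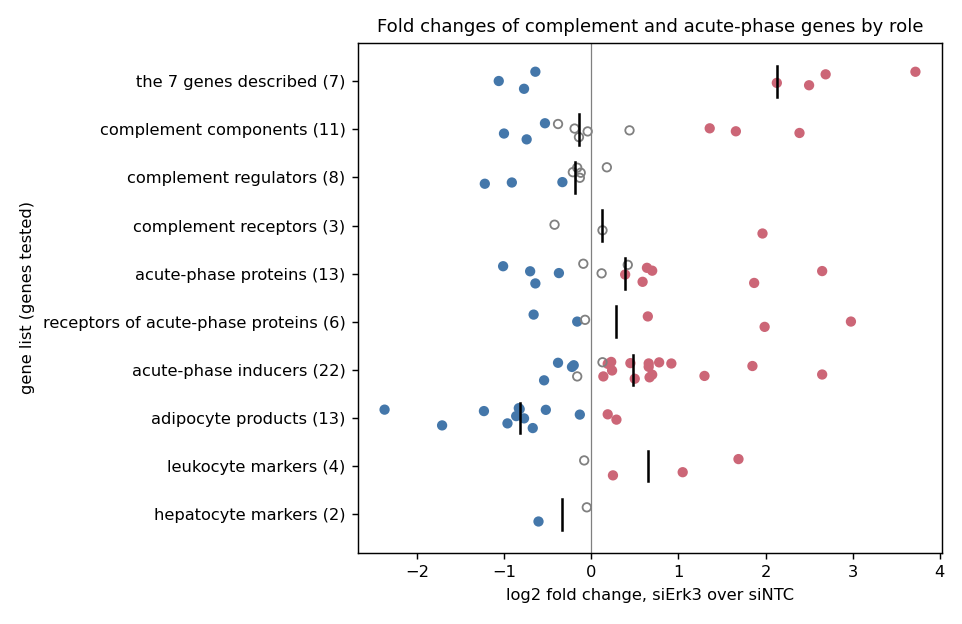
The log2FC of each tested gene by list, filled where edgeR called the gene (adjusted p under 0.05) and open otherwise. Black lines are list medians (-0.14 for complement components, 0.48 for inducers). That of the 7 genes described, 2.13, is the value of Serping1, which had to be higher to be in the table. Il6, with 0 to 2 counts per siNTC library and 17 to 29 per siErk3 library, is not drawn. It was singled out after its values were seen. It counts among the 22 genes of the inducer list and in their median, though it had to be higher to be in the table. The inducer list also holds Socs3 and Nfkbia, which inhibit this signaling. The 7 genes lie at both sides of 0, as do the components and the acute-phase proteins. The filled points of the regulators, a list without Serping1, lie left of 0.

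C3, Cfd and Hp are also products of mature adipocytes, so other such genes are set beside them. Of 14 adipocyte products 13 were tested, of which 11 were called lower and 2 higher, with a median log2FC of -0.82. Over all genes tested, 23.8% were called lower. C3 (-1.06), Cfd (-0.77) and Hp (-0.64) lay within the range of the lower products, which was wide, from -2.37 to -0.13. Adipoq, encoding adiponectin, fell by 0.83, Lpl, the lipoprotein lipase, by 0.86 and Fabp4, a fatty acid carrier, by 0.67 in log2FC (edgeR adjusted p = 8.97e-12, 1.28e-10 and 3.41e-10). Nampt rose by 0.29. Cd36, a fatty acid transporter, rose by 0.19, a call lost with upper-quartile factors (edgeR adjusted p = 0.142) and without siErk3 replicate 2 or 4 or siNTC replicate 3 (adjusted p = 0.0603 to 0.0822).

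Markers of hepatocytes and leukocytes, which also make these proteins, were at low levels apart from Cx3cr1. Of 8 hepatocyte markers 2 were tested, where Serpinc1 fell by 0.61 and Apoh was at 1.67 ± 0.227 and 1.62 ± 0.376 CPM (SD, n = 4 each) and not called. A gene on the opposite strand covers 34.4% of the exon bases of Serpinc1, and the kit does not mark strand. Among the leukocyte markers 4 were tested and 3 were called higher. Cd14 had 27 to 53 counts per siNTC and 140 to 152 per siErk3 library, Cd68 had 5 to 11 and 15 to 22 (above 1 CPM in 1 siNTC library, so in the table only through siErk3), and Cx3cr1 had a log2FC of 0.25, while Csf1r, at 7.12 ± 1.59 and 6.75 ± 1.3 CPM, was not called.

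For each of the 7 genes, the gene with the most similar profile was sought among 11254 genes of at least 10 CPM, by the root mean square difference of log2(CPM + 0.5), relative to the siNTC mean, over the 8 libraries. It was Acad11 for C3 (0.0562), Ces1d for Hp (0.0451) and Gm10039 for Cfd (0.0413). It was Trim25 for C4b (0.0908), Mov10 for Serping1 (0.152) and Shisa5 for Lcn2 (0.194), and for Cfb it was Gm20547 (0.00935), with which it shares reads. A small value means that the change between groups and the spread within them were both alike on this scale. The added 0.5 shrinks the changes of genes near 1 CPM. Serping1 (log2FC 2.13) was thus set beside Mov10 (1.67), and Lcn2 (2.69) beside Shisa5 (1.95), whose changes were smaller. Nothing follows from a match about shared control. Trim25 went from 75.7 to 453 CPM, Mov10 from 34.6 to 110 CPM and Ces1d from 111 to 71.1 CPM.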

How the data were processed

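Polyadenylated RNA of 4 siErk3 and 4 siNTC libraries was sequenced on a NextSeq500 after a library kit that does not mark strand. The authors deposited raw counts per gene for 18088 genes. In their processing notes the tools are Bowtie2, edgeR, FastQC and bcl2fastq, with build mm10. The counter, its annotation and its strand setting are not given in the sources used here. Each deposited gene exceeds 1 CPM in at least 4 libraries, so a low gene is kept only through the group where it is high. A second deposited table, of the comparison made by the authors (log2 fold change, mean log2 CPM, p-value and adjusted p-value), was not used.

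The fit used edgeR 4.0.16 under R 4.3.3. Genes were filtered by filterByExpr (minimum count 10, minimum total 15), scaled by TMM (factors 0.9599 to 1.047) and given a quasi-likelihood test of siErk3 over siNTC without covariates. Adjustment by Benjamini-Hochberg was over all 17972 genes tested, and a gene was called at an adjusted p under 0.05. The biological coefficient of variation was 6.08%, and the deepest library held 1.009 times the counts of the shallowest. Counting error given in the text covers counting alone, as the reads carried no molecular identifiers. No pair of libraries in a group agreed within sampling noise (chi-square per gene 1.97 to 8.295 over 12 pairs). The fits were tested on simulated data.

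The genes described and the lists were chosen with earlier results of these data known. Named from each list were at most 4 called genes per direction and 2 not called, by mean CPM, and for each gene described the gene of most similar profile. Il6, Cebpb, Socs3 and Nfkbia were named outside this rule and are not among the other named genes counted under alternatives. Some results of this rule are not reported here. Alternatives were DESeq2 1.42.0, limma-voom (limma 3.58.1), RLE or upper-quartile factors, library sizes only, no filter, 5 CPM in at least 4 libraries, a block for the replicate number, each library left out in turn and, added after the data were seen, C4b and C4a summed. Positions are from GENCODE M21, in which 18050 gene IDs were found, and promoters from RefSeq, where 3 of the 7 genes and Saa3 were matched. No symbol is given for 452 gene IDs.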

Additional observations from a re-analysis of the deposited data

Results flagged for a closer look

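In 9 of 124 groups of 4 values, 1 library stood well away from the rest. Chance flags about 1 in 20 such groups, or 6.2. Among the genes described, these were Cfb in siNTC replicate 4 (13.04 CPM, against 15.18 to 15.34 in the others), Cfb in siErk3 replicate 3 (199.1 CPM, against 192.6 to 193.6), C4b in siNTC replicate 3 (167.2 CPM, against 129.2 to 131.4) and C4b in siErk3 replicate 1 (814.7 CPM, against 782.4 to 787.8). The C4b value in siNTC replicate 3 lay toward the siErk3 libraries and the other values did not. Without siNTC replicate 3, the log2 fold change of C4b was 2.60 in place of 2.50.

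Among the genes of the lists, Clu in siNTC replicate 3 was at 18.79 CPM (16.2 to 16.53 in the others), Hmox1 in siErk3 replicate 1 at 1048 CPM (1175 to 1189), Scd1 in siNTC replicate 2 at 51801 CPM (57945 to 58394), Lpl in siErk3 replicate 4 at 6805 CPM (5893 to 5989) and Apoh in siErk3 replicate 4 at 2.176 CPM (1.363 to 1.481). The cause was not tested.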

How the results depend on the processing

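The direction and the call of each of the 7 genes were kept under every alternative in which it was tested. Their log2 fold changes ranged from -1.13 to -0.98 for C3, -0.71 to -0.55 for Hp, -0.84 to -0.68 for Cfd, 3.65 to 3.81 for Cfb, 2.43 to 2.60 for C4b, 1.99 to 2.32 for Serping1 and 2.57 to 2.88 for Lcn2. Requiring 5 CPM in 4 or more libraries left 2 of the 4 higher genes, since it removed Serping1 and Lcn2, and 10 in place of 16 lower genes over the complement and acute-phase lists, again with fewer genes tested. Leaving out 1 library kept 4 higher and 3 lower of the 7. Of 868 values of the 55 other named genes under alternatives, 840 kept their call or lack of one and 28, in 12 genes, did not. In 5 genes that were not called (Apoh, Colec12, Csf1r, Lrp1 and Orm1) 11 values turned their sign, without a call.

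Replicate numbers showed little pairing of the libraries, since same-numbered libraries deviated together with correlations of -0.013 to 0.078. Only those of replicate 3 (0.078) matched each other best both ways, and weak pairing cannot be told from none. With the replicate block, 4501 genes were higher and 4292 lower, and 4 and 3 of the 7, so the block changed none of these calls. Of all genes, 4470 were higher and 4275 lower, against 5849 and 3139 with library sizes only and 3556 and 5394 with upper-quartile factors. These scalings moved the median log2 fold change of all genes by 0.086 and -0.07. The depth limits Serping1, Lcn2 and other genes near 1 CPM, where counting error alone was 33.8% and 37.1% in siNTC.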

Other observations

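Between the 3′ end of C4b and C2 on chromosome 17, and including genes that reach into this interval, 14 genes were tested, 6 of them called higher, 3 lower and 5 not called. This interval was chosen after its values were seen. Gm20547 and Mir6972 lie at the same place as Cfb, and C4a shares reads with C4b, so the 6 are not separate results. Over all genes tested, 24.9% were called higher and 23.8% lower. Besides those given above, Tnxa, a pseudogene between C4b and C4a, went from 2.58 ± 0.271 to 4.99 ± 1.16 CPM (SD, n = 4 each; log2FC 0.95, edgeR adjusted p = 0.000221). Skiv2l, which encodes a helicase of the RNA exosome cofactor, and Zbtb12 were called lower, with log2FC values of -0.15 and -0.27 (edgeR adjusted p = 0.0195 and 0.0203). Stk19-ps1, a pseudogene 16.4 kilobases from the 3′ end of C4b, had a log2FC of -0.47 and was not called (edgeR adjusted p = 0.206).

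The summed share of the 7 genes in all counts was 0.499 to 0.548% in the siNTC and 0.383 to 0.412% in the siErk3 libraries, most of it from C3 and Cfd in both groups.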
